A study of Mus musculus with 14 samples.

Results

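The small leucine-rich proteoglycans followed here were the 7 genes Dcn, Bgn, Aspn, Lum, Fmod, Prelp and Ogn, chosen by name from the 42687 genes of the count table as proteoglycans of the choroidal and scleral stroma. They were measured by RNA-seq in 14 libraries of retinal pigment epithelium (RPE), the pigmented cell layer between the neural retina and Bruch's membrane. All mice were 3 months old and of the C57BL/6J strain, and each library held the RPE cells of both eyes of a single mouse. The knockout (KO) mice were Best1-Cre+/-; Clic4f/f, in which Cre recombinase driven by the Best1 promoter removes floxed Clic4, and which the study's methods describe as specific to the RPE. KO libraries were compared within 3 sets: 3 KO against 3 wild-type (WT) libraries, 2 KO against 2 Clic4f/f libraries without Cre (Ctrl), and 2 KO against 2 Best1-Cre+/- libraries without a floxed allele (CreCtrl). The control genotype and the set went together, so in control libraries and KO effects, differences between sets and between control genotypes cannot be told apart. The KO libraries had the same genotype in all 3 sets, so differences among them lie between sets and not between genotypes.

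Small leucine-rich proteoglycans are secreted proteins with a curved core of leucine-rich repeats, most of which carry glycosaminoglycan chains. They bind collagen fibrils, set fibril diameter and spacing, and hold growth factors of the TGF-beta family in the matrix. In the eye they are best known from the cornea and sclera, where their loss disturbs fibril packing, and they are made chiefly by fibroblast-like stromal cells. Decorin (Dcn), biglycan (Bgn) and asporin (Aspn) form class I, lumican (Lum), fibromodulin (Fmod) and Prelp class II, and osteoglycin (Ogn, or mimecan) belongs to class III.

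On the GRCm38 build the genes lay in clusters. Dcn (chr10:97479609-97518143, 8 exons in its principal transcript) and Lum (chr10:97565128-97572703, 3 exons) were 47.0 kb apart on the plus strand. Aspn (chr13:49544443-49567565, 8 exons) and Ogn (chr13:49608046-49624501, 7 exons) were 40.5 kb apart on the plus strand. Prelp (chr1:133910304-133921414, minus strand, 3 exons) and Fmod (chr1:134037254-134048277, plus strand, 3 exons) were 115.8 kb apart. Bgn (chrX:73483602-73495933, plus strand, 8 exons) had no other member near it. Exons of Prelp overlapped Gm15851 and those of Aspn overlapped Cenpp, each on the opposite strand, and the strand setting of the counting was not given in the sources used here, so counts of Prelp and Aspn could hold reads of those genes.

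The log2 fold changes in KO vs. CreCtrl given below lay apart for the pairs Aspn and Ogn and Fmod and Prelp. The 250 bases before the RefSeq start (GRCm38.p6) are shown for these genes, 5′ to 3′ on the strand of the gene. Both genes of each pair matched the same letters, and the part of these sequences in the fold changes was not tested. Promoters of 5 of the 7 genes were found in the RefSeq promoter table used here, which held no entry for Dcn or Lum. Capitals mark matches on either strand to TATAAA (the letters of the TATA box) or to CAGAC (SMAD element). TATAAA was found in 12.4% of 32851 promoter windows of the same length, and CAGAC in 42.2% of them. These are matches of letters only, and whether any of them acts as a promoter element was not tested. In the Ogn window both matches were to TATAAA and overlapped, 229 and 227 bases before the start, and in the Aspn window the matches were to TATAAA at 207 and 178 bases before it. In the Fmod window the matches were to CAGAC, the first 195 bases before the start, and in the Prelp window the match was to CAGAC at 161 bases before it.
Aspn, chr13:49544193-49544442, plus strand: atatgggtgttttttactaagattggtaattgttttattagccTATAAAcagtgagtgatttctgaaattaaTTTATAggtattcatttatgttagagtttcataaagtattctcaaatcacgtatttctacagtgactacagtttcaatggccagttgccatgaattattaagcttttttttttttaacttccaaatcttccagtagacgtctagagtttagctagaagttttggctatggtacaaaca
Ogn, chr13:49607765-49608014, plus strand: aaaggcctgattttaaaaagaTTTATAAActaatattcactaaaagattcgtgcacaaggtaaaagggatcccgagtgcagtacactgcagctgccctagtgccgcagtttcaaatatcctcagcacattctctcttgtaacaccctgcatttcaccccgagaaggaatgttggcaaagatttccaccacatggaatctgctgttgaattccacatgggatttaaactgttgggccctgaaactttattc
Fmod, chr1:134037004-134037253, plus strand: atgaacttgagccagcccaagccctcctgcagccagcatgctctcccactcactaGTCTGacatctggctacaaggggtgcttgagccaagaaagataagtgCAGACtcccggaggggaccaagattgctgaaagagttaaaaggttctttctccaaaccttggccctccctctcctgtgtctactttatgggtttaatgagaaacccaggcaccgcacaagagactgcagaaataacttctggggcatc
Prelp, chr1:133921402-133921651, minus strand: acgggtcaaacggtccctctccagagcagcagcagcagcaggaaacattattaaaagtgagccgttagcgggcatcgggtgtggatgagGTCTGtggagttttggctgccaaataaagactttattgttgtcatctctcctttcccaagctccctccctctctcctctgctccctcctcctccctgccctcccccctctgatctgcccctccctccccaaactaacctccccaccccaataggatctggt
None of the 5 windows held TGANTCA (AP-1 element), TAATCC (OTX2 core) or CACGTG (E-box of MITF), which stood in 6.75%, 6.25% and 6.02% of all windows. GGGCGG (GC box, in 32.7% of all windows) was found only in the Bgn window, which is not printed.

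The libraries held 9828293 to 32384166 counts. Clic4, the targeted gene, lay between 62.1 and 230 CPM (counts relative to library totals, here adjusted by a scaling factor per library) in the 7 control libraries and between 9.78 and 33.9 CPM in the 7 KO libraries, with no overlap. All 10 RPE markers were above 1 CPM in every library, and their summed level was 16429 to 58147 CPM in control and 72157 to 82880 CPM in KO libraries. Control groups differed, with RPE sums of 16429 to 23386 CPM in WT, 46778 to 47279 CPM in Ctrl and 50598 to 58147 CPM in CreCtrl. Markers of other cells were also present: the sum of 10 fibroblast markers was 446 to 2439 CPM in control and 296 to 471 CPM in KO libraries, that of 10 endothelial markers 111 to 555 and 25.7 to 143 CPM, and that of 7 mural markers 410 to 2110 and 222 to 376 CPM. In each set these sums were lower in KO libraries, as were most of the proteoglycan genes described below. The fibroblast sum was 2203 to 2439 CPM in WT, 446 to 583 CPM in Ctrl and 583 to 862 CPM in CreCtrl libraries. Sums of other lists overlapped over the 14 libraries, but not within every set. They were 863.9 to 2299 CPM in control and 759.9 to 2331 CPM in KO libraries for myeloid markers. For Schwann cell markers they were 272.9 to 679 and 545 to 897 CPM, and for rod markers 59.99 to 4804 and 406 to 2132 CPM. Within the WT set, myeloid sums were 1282 to 2299 CPM in control and 801 to 933 CPM in KO libraries. In the CreCtrl set they were 864 to 1105 and 760 to 768 CPM, and in the Ctrl set they overlapped. Schwann cell sums were higher in KO without overlap in the WT and Ctrl sets, and overlapped in the CreCtrl set. Rod sums were lower in KO without overlap in the CreCtrl set (563 to 638 against 1189 to 4804 CPM) and overlapped in the others. The mural marker Acta2 had higher means in KO libraries of the WT and CreCtrl sets, and a lower one in the Ctrl set. The part of other cells in the proteoglycan results was not tested. In bulk libraries such as these, fewer cells of a type and less RNA per cell cannot be told apart.

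The first question was how much proteoglycan mRNA each kind of library held. The 7 genes together took 0.743 to 0.782% of all counts in WT, 0.113 to 0.237% in Ctrl and CreCtrl, and 0.0255 to 0.0541% in KO libraries. Thus every KO library was below every control library, and the WT libraries were above the other controls. The factors of these and all levels below are trimmed mean of M-values (TMM) factors over all 14 libraries. Fold changes come from edgeR's quasi-likelihood test within a set, with TMM scaling of that set. A gene was called when its Benjamini-Hochberg adjusted p was under 0.05 and its fold change above 1.5. By this rule Clic4 was called lower against WT (log2 fold change -3.32 ± 0.22, SE) and against CreCtrl (-2.16 ± 0.36). Against Ctrl it was not called (-1.61 ± 0.58, edgeR adjusted p = 0.333).

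Of class I, Dcn, which binds collagen and TGF-beta and carries a dermatan or chondroitin sulfate chain, had the highest level of the 7 genes in every control group. It stood at 3033, 3115 and 2841 CPM in WT and at 236, 67.9 and 111 CPM in the KO libraries of that set. In the Ctrl set it was 1014 and 667 CPM against 44.2 and 167 CPM in KO, and in the CreCtrl set 565 and 1226 CPM against 25.5 and 108 CPM. All 7 KO libraries were below all 7 control libraries, the gap running from 236 to 565 CPM. The log2 fold change was -4.58 ± 0.44 (SE) against WT (adjusted p = 1.28e-04), -2.99 ± 0.67 against Ctrl (adjusted p = 0.140) and -3.76 ± 0.71 against CreCtrl (adjusted p = 0.0185). The CreCtrl value ran from -5.18 without KO replicate 2 of that set to -3.03 without KO replicate 1, and was -3.14 without CreCtrl replicate 2, with Dcn called in each case.

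Bgn, a relative of decorin that also signals through Toll-like receptors when soluble, followed Dcn closely in WT, at 2071, 2260 and 2355 CPM. The KO libraries of that set held 149.1, 75.4 and 68.8 CPM. Ctrl libraries held 285 and 215 CPM against 35.3 and 93.8 CPM in KO, and CreCtrl libraries 302 and 574 CPM against 29.7 and 60.3 CPM. Again no KO library reached a control library, and Ctrl lay far below WT. Bgn fell by 4.65 ± 0.32 on the log2 scale in KO vs. WT (adjusted p = 3.77e-05) and by 3.31 ± 0.44 against CreCtrl (adjusted p = 0.00727), or by 3.94 without KO replicate 2 of that set. In KO vs. Ctrl the log2 fold change was -1.95 ± 0.50 (adjusted p = 0.167).

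Aspn, which lacks glycosaminoglycan chains and restrains TGF-beta and BMP signalling, was the lowest of the 7 genes per length in every group. Its levels were 73.7, 56.6 and 51.4 CPM in WT and 3.20, 2.94 and 0.201 CPM in KO, the last from 3 counts. Ctrl libraries stood at only 3.82 and 3.90 CPM, with 0.391 and 1.91 CPM in their KO libraries, and CreCtrl libraries at 7.10 and 14.7 CPM, with 1.53 and 1.22 CPM. The highest KO library (3.20 CPM) was just under the lowest control library (3.82 CPM). The log2 fold change was -4.99 ± 0.65 against WT (adjusted p = 5.48e-04), -1.74 ± 0.85 against Ctrl (adjusted p = 0.550) and -3.02 ± 0.44 against CreCtrl (adjusted p = 0.00868). In a fit of all 14 libraries together the CreCtrl difference was -2.98 and missed the threshold, with an adjusted p of 0.0550. Without KO replicate 3 of the WT set the value against WT was -4.36, and without CreCtrl replicate 2 that against CreCtrl was -2.43.

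**Figure D1:**
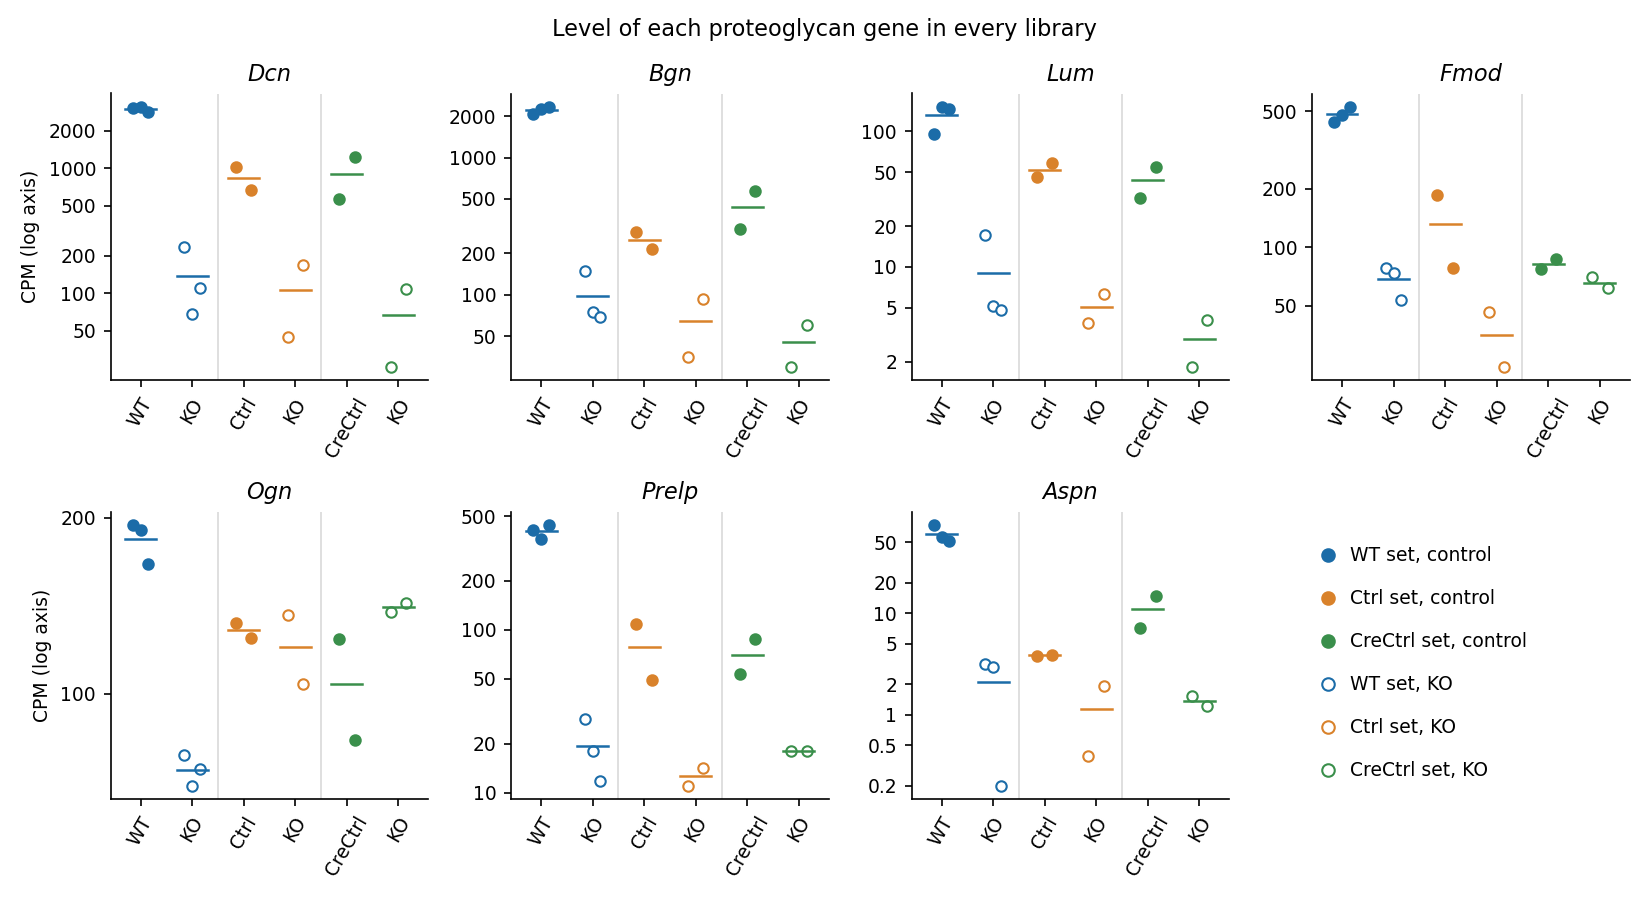
Level of each of the 7 proteoglycan genes in every library, in CPM on a log axis that differs between panels; filled points are control and open points KO libraries, colours are the 3 sets and short lines are group means. Dcn, Bgn, Lum, Prelp and Aspn have all KO points below all control points, and Ogn has not.

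Of class II, Lum, a keratan sulfate proteoglycan needed for corneal transparency, stood at 95.4, 152 and 147 CPM in WT and at 17.1, 5.10 and 4.81 CPM in the KO libraries of that set. It was 46.3 and 57.9 CPM in Ctrl against 3.85 and 6.27 CPM, and 32.3 and 54.8 CPM in CreCtrl against 1.82 and 4.07 CPM. No KO library overlapped a control library. The log2 fold changes lay close together, at -4.01 ± 0.49 against WT (adjusted p = 4.22e-04), -3.36 ± 0.36 against Ctrl (adjusted p = 0.106) and -3.90 ± 0.44 against CreCtrl (adjusted p = 0.00487). Without KO replicate 1 of the WT set the first value was -4.81, and without KO replicate 2 of the CreCtrl set the last was -4.63.

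Prelp, which links perlecan of basement membranes to collagen, was at 412, 364 and 442 CPM in WT and at 28.2, 18.1 and 11.8 CPM in KO. Ctrl libraries held 109 and 49.4 CPM against 11.02 and 14.2 CPM, and CreCtrl libraries 53.4 and 87.6 CPM against 18.0 CPM in each KO library. The KO libraries were below the controls throughout. Prelp fell by 4.53 ± 0.31 on the log2 scale in KO vs. WT (adjusted p = 3.53e-05) and by 2.00 ± 0.25 in KO vs. CreCtrl (adjusted p = 0.00615). The value in KO vs. Ctrl was -2.65 ± 0.45 (adjusted p = 0.1098).

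Fmod, which binds collagen at a site it shares with lumican and regulates cross-linking, behaved otherwise. It was 438, 477 and 528 CPM in WT and 78.4, 73.9 and 53.7 CPM in the KO libraries of that set. In the Ctrl set it was 186 and 78.04 CPM against 46.2 and 24.2 CPM. In the CreCtrl set, however, control libraries held 77.4 and 86.8 CPM and KO libraries 70.1 and 61.3 CPM, so the groups were separated by a few CPM. Fmod fell by 2.95 ± 0.17 against WT (adjusted p = 2.36e-05), while its log2 fold change was -1.91 ± 0.52 against Ctrl (adjusted p = 0.193) and -0.36 ± 0.15 against CreCtrl (adjusted p = 0.125). The KO replicate 1 of the WT set (78.4 CPM) exceeded CreCtrl replicate 1 (77.4 CPM), so KO and control libraries overlapped over the series.

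Ogn, the class III gene, a secreted protein found in cornea, sclera, bone and vessel wall, differed most from the others. It was 194, 190 and 167 CPM in WT and 78.4, 69.5 and 74.3 CPM in KO, with no overlap. Ctrl libraries held 132 and 125 CPM and their KO libraries 136 and 104 CPM, so the groups overlapped. In the CreCtrl set the order turned round, with 124 and 83.3 CPM in control and 138 and 143 CPM in KO libraries. Thus the KO libraries, all of the same genotype, did not overlap in Ogn between sets. They were lowest in the WT set and highest in the CreCtrl set. Ogn fell by 1.45 ± 0.12 on the log2 scale in KO vs. WT (adjusted p = 6.19e-05). Its log2 fold change was -0.10 ± 0.24 against Ctrl (adjusted p = 0.957) and 0.40 ± 0.21 against CreCtrl (adjusted p = 0.190). Without CreCtrl replicate 1 the latter became 0.71 and was called (adjusted p = 0.0172), and without KO replicate 2 of the Ctrl set the former became 0.09.

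In KO vs. WT, all 7 genes were called lower, where 17.6% of the 15428 genes tested were. In KO vs. CreCtrl, 5 of 7 were called lower (Dcn, Bgn, Lum, Prelp and Aspn), where 12.2% of 15963 genes were. In KO vs. Ctrl, edgeR called 0 of 7, and 0 of 15287 genes (0%), while 5 of 7 had an unadjusted p under 0.05, as had 12.1% of all genes tested. DESeq2 called Dcn, Bgn, Lum, Fmod and Prelp lower in that set, where it called 7.16% of genes lower, and the same 5 genes were called by edgeR without a filter on low counts (6.81% of genes lower) and in a fit of all 14 libraries (3.6% of genes lower). Leaving out Ctrl replicate 1 gave calls for 2 of them, Lum (-3.50, adjusted p = 0.0149) and Prelp (-1.95, adjusted p = 0.0478), and moved Fmod from -1.91 to -1.14. Without KO replicate 1 of that set, Dcn became -2.34 and Aspn -1.02, and without KO replicate 2, Dcn became -4.25, Bgn -2.82 and Aspn -3.28, with 0 called.

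With all 14 libraries and the set as covariate, 6 of 7 genes were called lower (15.7% of 17662 genes tested were). The log2 fold changes were -3.83 ± 0.45 for Dcn, -3.44 ± 0.43 for Bgn, -3.47 ± 0.60 for Aspn, -3.73 ± 0.32 for Lum, -3.19 ± 0.39 for Prelp and -1.86 ± 0.35 for Fmod, with adjusted p between 6.00e-06 and 0.00154. Ogn had a log2 fold change of -0.46 ± 0.23 (adjusted p = 0.137). Without CreCtrl replicate 2 it was -0.62 and called (adjusted p = 0.0394), and with scaling by library size alone it was -0.73 and called (adjusted p = 0.0391). Every KO library was below every control library for 5 of 7 genes, against 4.77% of all genes tested. Within sets the KO libraries were all lower for 7 of 7 genes in the WT set and for 6 of 7 in each of the others, where this held for 24.5% (WT), 22.7% (Ctrl) and 34.9% (CreCtrl) of all genes.

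**Figure D2:**
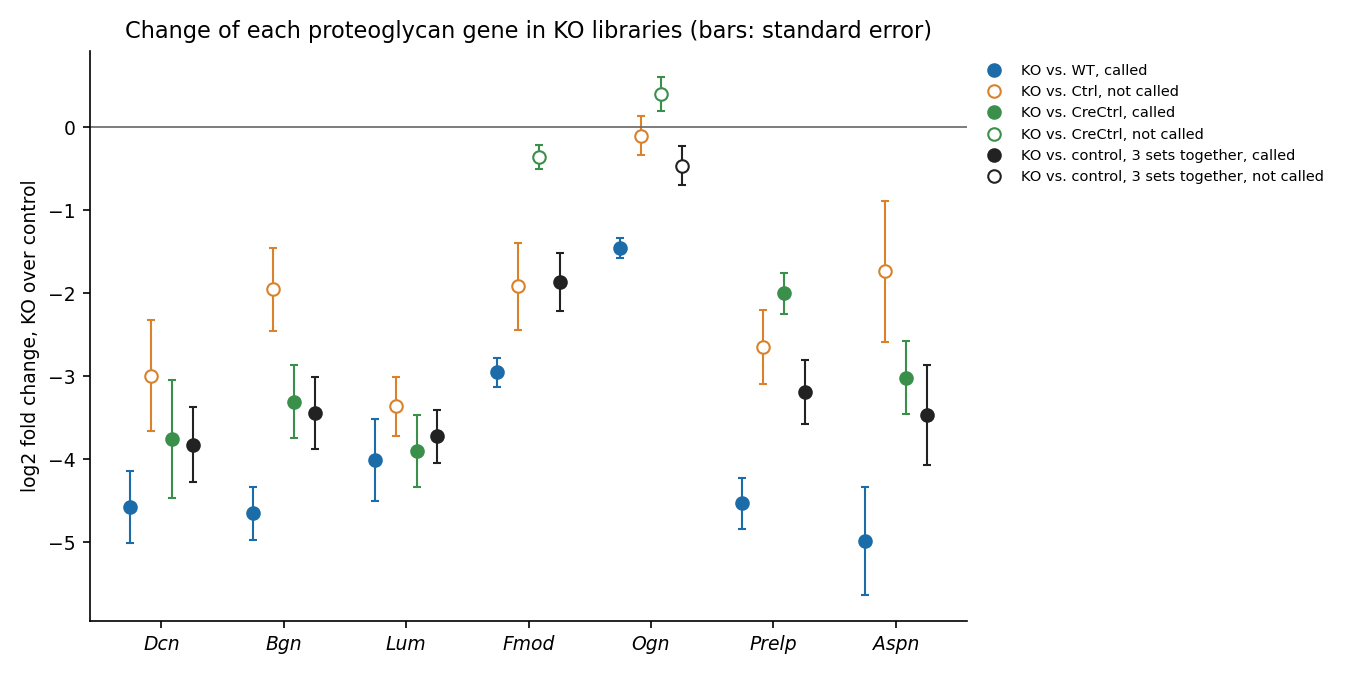
Log2 fold change of KO over control for each gene, with its standard error, in the 3 sets and over the 3 sets together; filled points were called and open points were not. Fmod and Ogn lie nearest to 0 in the CreCtrl set, at -0.36 and 0.40, while Lum lies between -4.01 and -3.36 in all 3 sets.

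An effect called in one set and not in another is not thereby different, so the differences of the KO effects were tested. The drop in KO vs. WT was larger than that in KO vs. Ctrl for Bgn by 2.56 ± 0.63 on the log2 scale (adjusted p = 0.0378) and for Ogn by 1.21 ± 0.25 (adjusted p = 0.0179), that is for 2 of 7 genes, where 5.15% of 17662 genes differed. These 909 genes became 100 without KO replicate 2 of the Ctrl set and 1459 without Ctrl replicate 1. Against KO vs. CreCtrl it was larger for 3 of 7 genes, where 1.49% of genes differed. These 264 genes became 0 without either KO library of the CreCtrl set, 4 without CreCtrl replicate 1, 12 without KO replicate 2 of the WT set and 432 without Ctrl replicate 1. The larger drop was by 2.49 ± 0.46 for Fmod (adjusted p = 0.0256), 2.42 ± 0.51 for Prelp (adjusted p = 0.0378) and 1.75 ± 0.25 for Ogn (adjusted p = 0.0136). For Dcn, Lum and Aspn no difference between sets passed the threshold. Without a filter on low counts, that between the WT and Ctrl sets passed for Dcn (-1.42) and Aspn (-3.09), and that between the WT and CreCtrl sets for Aspn (-1.88). Over all genes 2262 and 1102 of 27272 tested differed there. Each of the 5 differences lost its call when some single libraries were left out, as the closing section gives. Between the Ctrl and CreCtrl sets 0 of 7 passed by edgeR (0% of all genes tested did), with 1 of 7, Fmod (-1.59 ± 0.50), at an unadjusted p under 0.05.

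Because the genes fell by different amounts, the make-up of the proteoglycan mRNA differed between KO and control libraries. Levels were compared per length here, as CPM per kilobase of exon. In WT the order was Dcn (513 ± 24.1 CPM per kb, SD, n = 3), Bgn (365 ± 23.6), Fmod (145 ± 13.6), Prelp (112.2 ± 10.8), Ogn (71.7 ± 5.77), Lum (53.7 ± 12.8) and Aspn (25.7 ± 4.96), and no neighbours in that order overlapped. In Ctrl and CreCtrl Dcn was again first, at 144 ± 42.0 and 153 ± 80.1 CPM per kb (n = 2 each), while Fmod and Prelp, and Prelp and Lum, overlapped in both, as did Bgn and Fmod in Ctrl. In all 3 KO groups Ogn came first by its mean. It stood at 28.9 ± 1.74 CPM per kb in the KO libraries of the WT set (n = 3), where it overlapped Dcn (23.7 ± 14.9), and at 46.8 ± 8.95 and 54.8 ± 1.36 CPM per kb in those of the Ctrl and CreCtrl sets (n = 2 each), where it overlapped no other member.

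The summed level of the 7 genes was 1251 to 1310 CPM per kb in WT, 249 to 416 in Ctrl and CreCtrl and 80.8 to 135 in KO libraries. Ogn made up 5.001 to 19.4% of that sum in the 7 control libraries and 22.6 to 62.3% in the 7 KO libraries, which did not overlap. Dcn made up 37.4 to 50.5% in control and 4.83 to 29.8% in KO libraries, again without overlap. The share of Bgn was 12.3 to 29.7% in control and 5.37 to 18.1% in KO libraries, and that of Fmod 6.32 to 14.9% and 7.38 to 27.3%, and both overlapped.

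**Figure D3:**
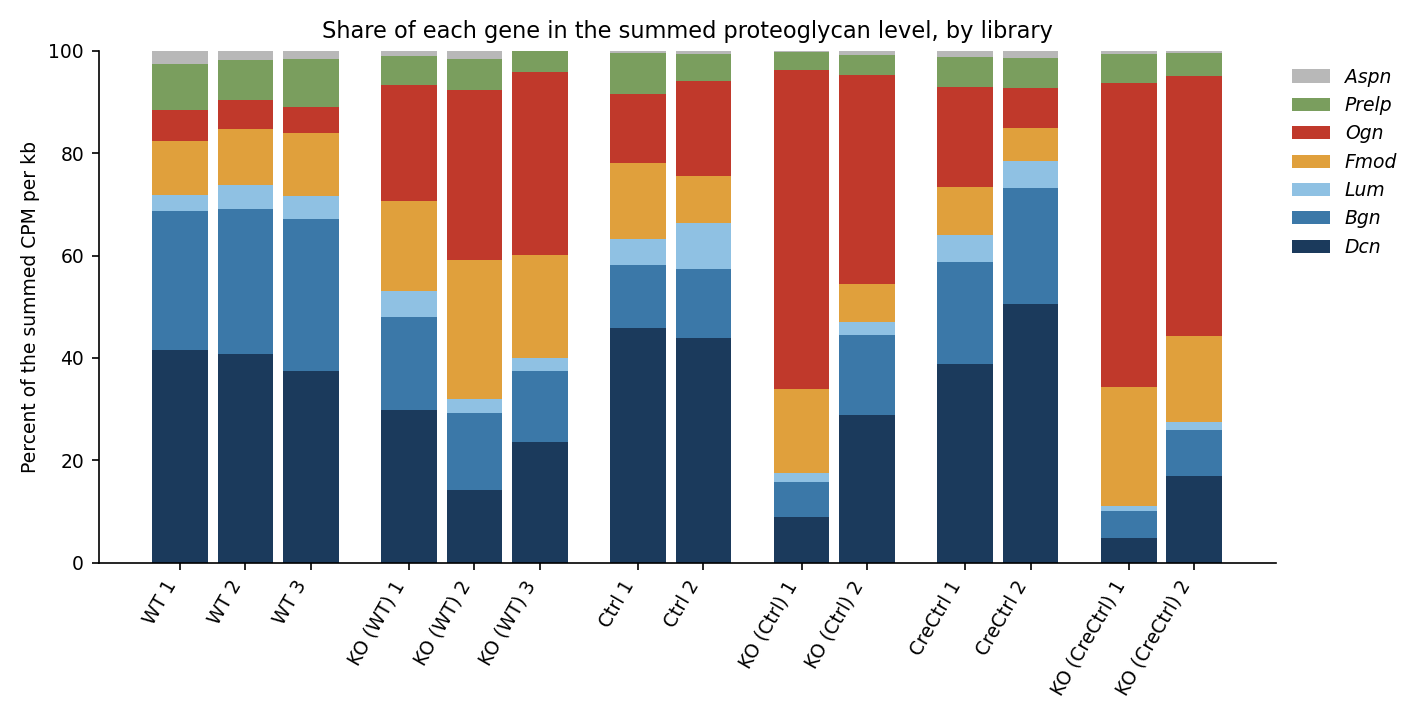
Share of each gene, in percent, of the summed CPM per kb of the 7 genes in each of the 14 libraries. The red Ogn segment takes at most 19.4% of any control library and at least 22.6% of any KO library, while the dark blue Dcn segment is below 30% in every KO library.

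The change of make-up was tested on the log2 ratio of each gene to Dcn in each library, with an exact two-sided permutation test that exchanged KO and control within sets. There were 720 arrangements, so the smallest p it can give is 0.00278, and p-values were adjusted over the 6 ratios. Relative to Dcn, Ogn was higher in KO by 3.59 on the log2 scale (exact p = 0.00278, the smallest possible, adjusted p = 0.0167), with differences of 3.32, 3.15 and 4.45 in the WT, Ctrl and CreCtrl sets. Fmod was higher by 2.22 (exact p = 0.00556, adjusted p = 0.0167), with 1.81, 1.41 and 3.66 in the sets. Without Ctrl replicate 2 the Fmod value was 2.13 and the adjusted p of the permutation test 0.0583. The other ratios did not pass, with 0.86 for Prelp (adjusted permutation p = 0.117), 0.54 for Bgn (0.117), 0.23 for Lum (0.497) and 0.39 for Aspn (0.564). Library by library, the KO library with the highest Dcn in each set (replicate 1 of the WT set, replicate 2 of the others) also had the highest Bgn and Lum of that set's KO libraries. It had the highest Clic4 of them too, at 33.1, 33.9 and 30.5 CPM in the WT, Ctrl and CreCtrl sets. In the Ctrl and CreCtrl sets that library had the lower Fmod.

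The same test was run on each gene relative to the mean log2 level of the 10 fibroblast markers, with p-values adjusted over 7 genes. That list holds no member. The markers fell unevenly, so their mean need not follow fibroblast content. Mean Islr was 223.7 CPM in Ctrl and 206.6 CPM in that set's KO libraries, against 57.96 and 5.65 CPM for Pdgfra. In the CreCtrl set these were 207.8 and 211.97 CPM for Islr, and 58.08 and 4.49 CPM for Pdgfra. Clec3b and Twist2 were near the floor in KO libraries of the Ctrl set (0.261 and 0.0652 CPM). Whether the 7 genes changed beyond fibroblast content was not tested. Dcn was lower in KO relative to these markers by 1.43 on the log2 scale (adjusted permutation p = 0.00972), Lum by 1.21 (0.0130), Bgn by 0.90 (0.0146) and Prelp by 0.57 (0.0350). Ogn was higher relative to them by 2.16 (adjusted permutation p = 0.00972). Fmod was at 0.79 (0.0519) and Aspn at -1.04 (0.0583), which did not pass. Dcn and Lum had a negative difference in all 3 sets (-1.13, -1.47 and -1.85 for Dcn), Bgn too, and Ogn a positive one in all 3 (2.18, 1.68 and 2.60), whereas Prelp was at 0.21 in the CreCtrl set. The result for Prelp was lost without any 1 of 8 libraries, all 3 WT libraries, KO replicates 1 and 3 of the WT set, Ctrl replicate 1, KO replicate 1 of the Ctrl set and CreCtrl replicate 2, with values from -0.62 to -0.45. Fmod passed without Ctrl replicate 1 (0.89) or KO replicate 2 of the Ctrl set (1.02), and Aspn without KO replicate 2 of the WT set (-1.15) or of the Ctrl set (-1.34).

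**Figure D4:**
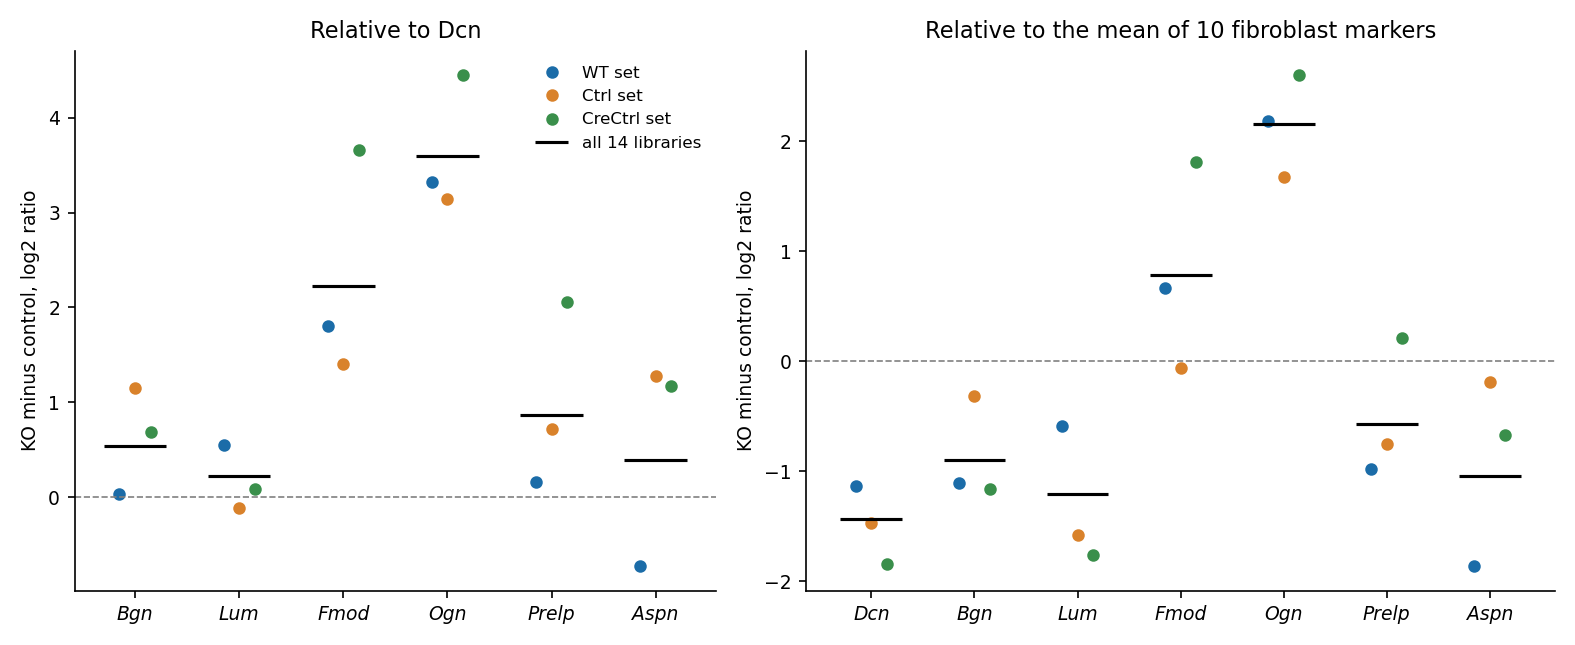
KO minus control difference of the log2 ratio of each gene to Dcn (left) and to the mean of 10 fibroblast markers (right); points are the 3 sets and black lines the value over all 14 libraries. Ogn is above 0 in each set in both panels, at 3.59 and 2.16 over all libraries.

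Other genes of the family gave a mixed picture. For the counts of this list and those below, 17.6% of all genes tested were called lower in KO vs. WT. In KO vs. CreCtrl 12.2% were called lower, and in KO vs. Ctrl 12.1% had an unadjusted p under 0.05. Of the 11 other small leucine-rich proteoglycan genes, 9 could be tested in KO vs. WT, of which 5 were called lower and 1 higher (14.1% of all genes tested were called higher). In KO vs. CreCtrl 4 of 8 were called lower and in KO vs. Ctrl 0 of 8, of which 4 had an unadjusted p under 0.05. Chad (chondroadherin, a cartilage and tendon protein) stood at 183 ± 36.2 CPM in WT and 4.18 ± 2.02 CPM in KO (SD, n = 3), a drop of 5.58 ± 0.34 on the log2 scale (edgeR adjusted p = 3.10e-05), and against CreCtrl it fell by 4.85 ± 0.57 (adjusted p = 0.00542). Omd (osteomodulin), which lies between Aspn and Ogn, fell by 5.74 ± 1.03 against WT (adjusted p = 0.00287) and by 2.14 ± 0.44 against CreCtrl (adjusted p = 0.0237). It stood at 17.0 ± 6.34 CPM in WT and 0.340 ± 0.53 CPM in the KO libraries of that set (SD, n = 3). There 3 counts would be 0.201 to 0.210 CPM, so the size of the drop against WT rests on values near the floor. Chadl, a relative of Chad, was the 1 gene called higher, by 1.07 ± 0.27 against WT (adjusted p = 0.0147). Optc (opticin, of the vitreous and ciliary body), 2.30 kb from Prelp, ranged from 2.54 to 255 CPM in control and from 0 to 76.2 CPM in KO libraries and passed no test. Kera (keratocan, of the cornea), singled out after its values were seen, had 0 counts in all 7 KO libraries. There 3 counts would be 0.104 to 0.210 CPM on the same scale. Control libraries held 0.0428 to 5.80 CPM, so the lowest was below these limits and does not stand apart from the KO libraries.

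The collagens and glycoproteins to which these proteoglycans bind fell in the same comparisons. All 12 genes of this list were called lower in KO vs. WT (median log2 fold change -4.36, against -0.08 over all genes tested) and in KO vs. CreCtrl (median -3.37, against -0.02). In KO vs. Ctrl 0 of 12 were called and 10 had an unadjusted p under 0.05 (median -2.87, against 0.01). Col1a1 and Col1a2, the chains of type I collagen, fell by 4.58 ± 0.47 and fell by 4.55 ± 0.42 against WT (edgeR adjusted p = 1.67e-04 and 1.02e-04). Col3a1, the chain of type III collagen, fell by 4.33 ± 0.36 (adjusted p = 6.31e-05). The largest drop among the 12 genes against WT was that of Col12a1, a fibril-associated collagen, by 5.31 ± 0.35 (adjusted p = 3.47e-05). Over the 7 proteoglycan genes the median was -4.53 against WT, -1.95 against Ctrl and -3.02 against CreCtrl.

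Enzymes that process collagen and matrix were split. Of 10 genes tested, 4 were called lower and 0 higher in KO vs. WT, and the same counts held in KO vs. CreCtrl, while 0 of 10 were called in KO vs. Ctrl (3 at an unadjusted p under 0.05). Adamts2, which removes the amino-terminal propeptide of collagens, fell by 4.01 ± 0.20 against WT (edgeR adjusted p = 2.03e-05), and Bmp1, the procollagen C-proteinase that also matures biglycan, by 2.85 ± 0.22 (adjusted p = 5.38e-05). Pcolce, the enhancer of that proteinase, was at 732 ± 66.5 CPM in WT and 844 ± 42.4 CPM in KO libraries (SD, n = 3 each), and its log2 fold change of 0.06 ± 0.12 did not pass (adjusted p = 0.757). Loxl1, which cross-links elastin, was at -0.51 ± 0.18 (adjusted p = 0.0557).

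Of the genes that build the chondroitin and dermatan sulfate chains of decorin and biglycan, 11 of 21 were called lower and 0 higher in KO vs. WT. In KO vs. CreCtrl 4 of 21 were called lower and 1 higher (3.46% of all genes tested were called higher), and in KO vs. Ctrl 0 of 19 (6 at an unadjusted p under 0.05). Those that fell included Chpf, a chondroitin polymerase subunit (-2.02 ± 0.15 against WT, edgeR adjusted p = 4.47e-05), and Ust, which sulfates uronyl residues (-3.50 ± 0.39, adjusted p = 2.80e-04). B3gat3, which completes the linker that joins chain and core protein, was at -0.04 ± 0.14 (adjusted p = 0.866), and Fam20b, the kinase of that linker, at 0.38 ± 0.21 (adjusted p = 0.212). Of the keratan sulfate genes, 3 of 5 were called lower in KO vs. WT and 1 of 6 in KO vs. CreCtrl. The latter share is near the 12.2% of all genes called lower there. In KO vs. Ctrl 0 of 6 were called (2 at an unadjusted p under 0.05). Chst1, a keratan sulfate sulfotransferase, fell by 3.27 ± 0.52 against WT and fell by 4.85 ± 0.72 against CreCtrl (edgeR adjusted p = 0.00150 and 0.00894). Its mean was 10.1 CPM in CreCtrl and only 0.343 CPM in the KO libraries of that set. The galactosyltransferase B4galt1 was at 0.37 ± 0.16 against WT (adjusted p = 0.123).

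Among the growth factors and receptors that bind decorin, biglycan or asporin, 7 of 11 were called lower and 2 higher in KO vs. WT, 5 of 12 lower and 1 higher in KO vs. CreCtrl, and 0 of 12 in KO vs. Ctrl (5 at an unadjusted p under 0.05). Tgfb3, a TGF-beta ligand, fell by 4.37 ± 0.37 against WT and Egfr, the epidermal growth factor receptor, by 3.84 ± 0.27 (edgeR adjusted p = 6.87e-05 and 3.86e-05). Met, the hepatocyte growth factor receptor, rose by 2.17 ± 0.19 (adjusted p = 9.42e-05), and it was also the gene called higher against CreCtrl, by 1.15 ± 0.24 (adjusted p = 0.0262). Lrp1, an endocytic receptor for decorin, was at -0.26 ± 0.11 against WT (adjusted p = 0.113). Of 23 proteoglycans outside the family, 10 were called lower and 4 higher in KO vs. WT, and 7 of 22 lower and 1 higher in KO vs. CreCtrl, with 0 of 22 in KO vs. Ctrl (7 at an unadjusted p under 0.05). Prg4 (lubricin) fell by 6.68 ± 1.22 against WT (adjusted p = 0.00317) from a low level of 7.24 ± 4.61 CPM (SD, n = 3). Cspg5, a membrane proteoglycan, rose by 2.25 ± 0.18 against WT (adjusted p = 6.10e-05), from 265 ± 55.4 to 1390 ± 87.3 CPM.

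**Figure D5:**
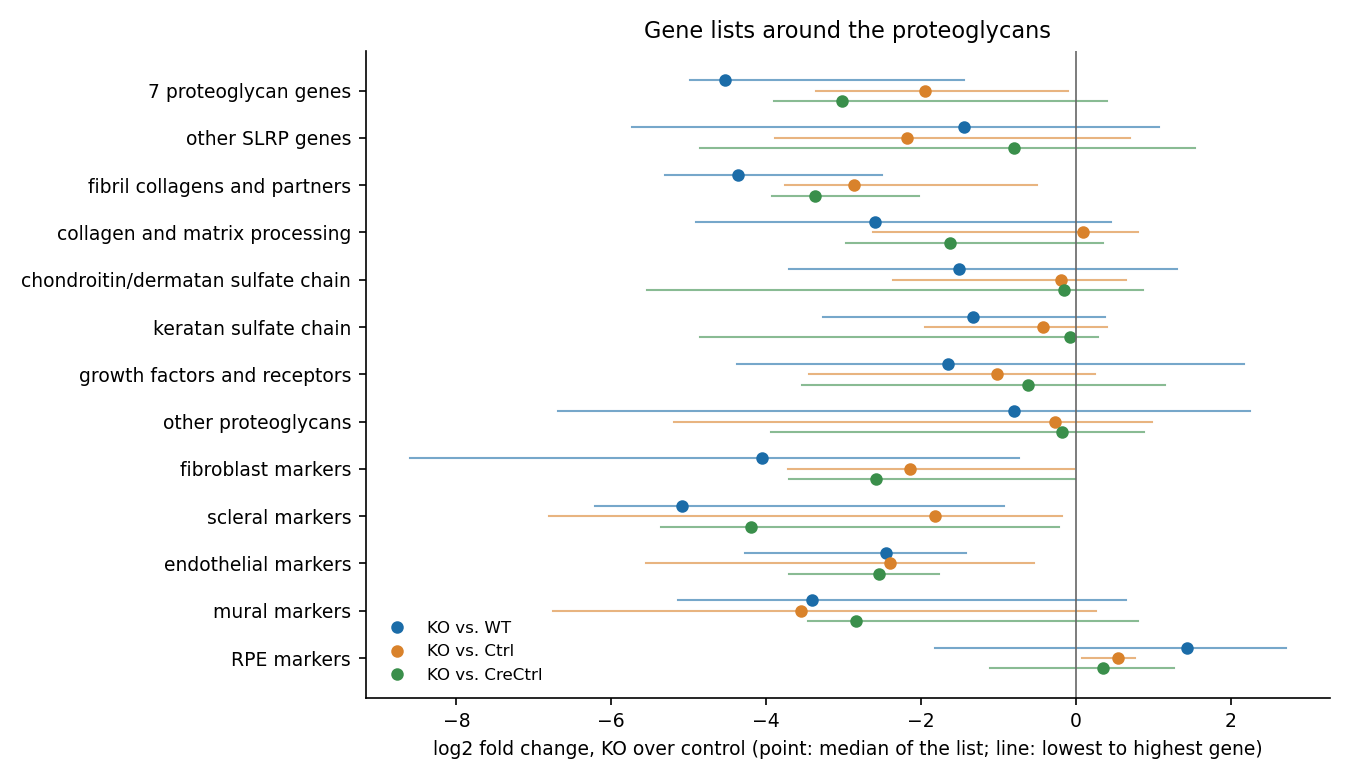
Median (points) and range from the lowest to the highest gene (lines) of the log2 fold change of KO over control in the 7 genes, 7 related lists and 5 marker lists, for the 3 sets. In KO vs. WT the medians of the 7 genes, the collagen partners and the fibroblast markers lie at -4.53, -4.36 and -4.05, and that of the RPE markers at 1.43.

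Cell type markers were called as follows. Of the 10 fibroblast markers, 10 were lower in KO vs. WT (median -4.05) and 7 in KO vs. CreCtrl (median -2.58), and of the scleral markers 7 of 9 and 5 of 8. Endothelial markers were lower in 9 of 10 in each of these comparisons, mural markers in 4 of 7 in each, and myeloid markers in 7 of 8 and 5 of 8. The myeloid marker Csf1r had higher means in KO in the WT (494 to 783 CPM), Ctrl (515 to 731) and CreCtrl (585 to 727) sets. In KO vs. Ctrl 4 of 8 myeloid markers had a log2 fold change below 0. Schwann cell markers were lower in 2 of 5 and higher in 1 in KO vs. WT, and lower in 1 of 5 in KO vs. CreCtrl. RPE markers were higher in 8 of 10 in KO vs. WT (median 1.43) and in 1 of 10 in KO vs. CreCtrl (median 0.35). Best1, whose promoter drives Cre in the KO mice, went the other way without being called lower. Its mean was 4.47 CPM in WT and 1.39 CPM in the KO libraries of that set, and 2.92 and 1.38 CPM in the CreCtrl set. Rod markers were higher in 1 of 8 in KO vs. WT and lower in 7 of 8 in KO vs. CreCtrl. Over all genes tested, 17.6% were called lower and 14.1% higher in KO vs. WT, and 12.2% lower and 3.46% higher in KO vs. CreCtrl. An unadjusted p under 0.05 in KO vs. Ctrl was found for 12.1% of all genes tested. In KO vs. Ctrl edgeR called 0 genes of any of these lists, with unadjusted p under 0.05 in 3 of 9 fibroblast, 3 of 7 scleral, 8 of 10 endothelial, 5 of 7 mural, 1 of 8 myeloid, 1 of 5 Schwann cell, 1 of 8 rod and 0 of 10 RPE markers. Fibroblast markers were not uniform: Prrx1, a mesenchymal transcription factor, fell by 4.59 ± 0.34 against WT (adjusted p = 4.84e-05), whereas Islr, at 304 ± 19.6 CPM in WT and 202 ± 16.5 CPM in KO libraries (SD, n = 3 each), fell by 0.73 ± 0.12 (adjusted p = 0.00180). Twist2, another marker of the list, had 0 counts in all 3 KO libraries of the WT set. The part of these markers in the results for the 7 genes was not tested.

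The genes whose profile over the 14 libraries was most like the mean of the 7 (z-scores of log2 CPM, 14547 genes searched, no p given) were Boc (Pearson r = 0.995), Pam (0.992), Lamc1 (0.990), Palm (0.989), Tgfbr2 (0.987), Zcchc24 (0.987), Itm2a (0.984), Fkbp10 (0.983), Tcf4 (0.983) and Glis2 (0.982). Lamc1 encodes a laminin chain, Fkbp10 a collagen chaperone and Tgfbr2 a receptor for TGF-beta. The 14 points share the separation of WT, other control and KO libraries.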

How the data were processed

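RNA was extracted from trypsin-detached RPE cells, and libraries were made with a stranded mRNA kit and sequenced as paired reads. The deposited table holds raw counts per gene, which the authors made from reads aligned to GRCm38. The submitters' processing notes name bcl2fastq 2.19, STAR 2.5.2, Cufflinks 2.1.1 and HTSeq 0.11.2. No table column lacked a sample (0 columns), and 42250 of 42687 gene IDs were named with GENCODE release 21.

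Counts were tested with edgeR 4.0.16 (R 4.3.3, limma 3.58.1): TMM scaling, filterByExpr, glmQLFit and glmQLFTest, Benjamini-Hochberg over all genes tested, within each set, over the 3 sets with the set as covariate, and as contrasts of 6 groups for differences between sets. Calls needed an adjusted p under 0.05 and a fold above 1.5, or the adjusted p alone for differences. Log2 ratios used a prior count of 2 and exact permutation tests (Python 3.11.15, scipy 1.17.1). Alternatives were DESeq2 1.42.0, other scalings and filters, a fit of all 14 libraries, a prior count of 0.5, a replicate block and leaving out each library. The scripts were tested on simulated data. Depth was 9828293 to 32384166 counts per library, and a count of 0 allows up to 3 counts of the total; this and other counting limits cover counting error only. Replicates were separate mice.

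The 7 members and all 15 other lists were chosen with earlier results of these data known. Genes named from a list were taken from its 3 with the highest mean CPM and its 2 with the largest absolute log2 fold change in KO vs. WT. Not all of these are given, and the choice among them was made after their values were seen.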

Additional observations from a re-analysis of the deposited data

Results flagged for a closer look

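The size of the KO effect differed between sets for 4 of the 7 genes, in 5 tests of the difference itself (edgeR, adjusted p under 0.05 over all genes tested). For Ogn the log2 fold change in KO vs. WT minus that in KO vs. Ctrl was -1.214, and minus that in KO vs. CreCtrl -1.749. The direction held without each library in turn (-1.38 to -0.99 and -2.07 to -1.48). The call of the first was lost without KO replicate 2 of the WT set (-1.17), Ctrl replicate 2 (-1.24) or KO replicate 1 of the Ctrl set (-0.99), and that of the second without KO replicate 2 of the WT set (-1.71) or KO replicate 1 or 2 of the CreCtrl set (-1.77 and -1.72).

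For Bgn the difference between the WT and Ctrl sets was -2.558. Its call was lost without any WT library (-2.61 to -2.52), KO replicate 2 or 3 of the WT set (-2.40 and -2.36), Ctrl replicate 2 (-2.43) or KO replicate 2 of the Ctrl set (-1.67). For Fmod the difference between the WT and CreCtrl sets was -2.488, and its call was lost without WT replicate 2, KO replicate 2 or 3 of the WT set, or any library of the CreCtrl set, with values from -2.57 to -2.34. For Prelp it was -2.422, and its call was lost without any WT library, KO replicate 2 or 3 of the WT set, CreCtrl replicate 1, or KO replicate 1 or 2 of the CreCtrl set, with values from -2.50 to -2.11.

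Differences between the WT and Ctrl sets that did not pass with all libraries passed without some: Prelp (-1.75) without KO replicate 1 of the WT set (-2.12) or Ctrl replicate 1 (-2.41), and Fmod (-0.90) without Ctrl replicate 1 (-1.64).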

How the results depend on the processing

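In KO vs. WT all 7 genes were called under every alternative in which they were tested, where Aspn was not tested with at least 10 counts in every library. In KO vs. Ctrl the count of 0 became 5 with DESeq2, without a filter on low counts and in the fit of all 14 libraries, and 0 to 2 with a library left out. With a replicate block, 7, 1, 5 and 6 genes were called in KO vs. WT, KO vs. Ctrl, KO vs. CreCtrl and over the 3 sets, and the 1 was Lum (-3.39). Over all genes tested the block gave 2471 of 15428, 113 of 15287, 2702 of 15963 and 2412 of 17662 called lower. Same-numbered KO and control libraries correlated between -0.02 and 0.18 in the WT set in their deviations from the group means, so the numbers were not taken to pair samples. In KO vs. CreCtrl and over the 3 sets, leaving out a library gave 5 to 6 and 6 to 7 calls. The count of genes whose KO effect differed between sets became 6 (WT minus Ctrl), 5 (WT minus CreCtrl) and 2 (Ctrl minus CreCtrl) without a filter, and with a library left out it was 0 to 4, 0 to 3 and 0. Gained without a filter were Dcn (-1.42), Aspn (-3.09), Fmod (-0.88) and Prelp (-1.72) in the first, Aspn (-1.88) and Bgn (-1.25) in the second, and Bgn (1.28) and Fmod (-1.62) in the third. Over all genes 2262, 1102 and 883 of 27272 tested differed without a filter, against 909, 264 and 0 of 17662 in the main fits. Beside the values given above, over all genes the first count, 909, was 138 without Ctrl replicate 2 and 361 without KO replicate 2 of the WT set. The second, 264, was 53 without KO replicate 3 of the WT set and 72 without WT replicate 2. The third, 0, was 189 without Ctrl replicate 1, 15 without KO replicate 1 of the Ctrl set and 2 without KO replicate 3 of the WT set.

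Reversed values were 0.0862 (range with a library left out -0.31 to 0.0862) for Ogn in KO vs. Ctrl without KO replicate 2 of that set, and some differences between sets. For Lum the WT minus CreCtrl difference of 0.01 became -0.0474 (RLE), -0.0914 (library size alone), -0.0103 (no filter) and -0.0305 (at least 10 counts), and -0.85 to 0.72 with a library left out. For Dcn that difference, -0.70, ran from -1.40 to 0.70, the latter without KO replicate 2 of the CreCtrl set. The Ctrl minus CreCtrl difference ran from -0.52 to 2.13 for Dcn (0.75) and from -0.31 to 1.95 for Aspn (1.25), in both cases lowest without KO replicate 2 of the Ctrl set.

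Relative to Dcn, Fmod ran from 1.79 to 2.59 with a library left out. Relative to the fibroblast markers, with a prior count of 0.5, Fmod passed (0.99, adjusted permutation p = 0.0243) and Prelp did not (-0.37, 0.133). With a library left out Fmod ran from 0.58 to 1.02, Prelp from -0.73 to -0.45 and Aspn from -1.34 to -0.59. The cause was not tested in any of these cases. With library size as the only scaling, the median gene went, on the log2 scale, from -0.08 to -0.32 in KO vs. WT, 0.01 to -0.11 in KO vs. Ctrl and -0.02 to -0.24 in KO vs. CreCtrl, and the higher genes among calls from 44.4% to 28.3% in KO vs. WT and from 22.1% to 6.13% in KO vs. CreCtrl (31.6% with DESeq2). Over all genes, KO vs. Ctrl gave 0 calls, 1111 with DESeq2, 1658 without a filter, 647 in the fit of all 14 libraries, 113 with the block, 512 without Ctrl replicate 1 and 26 without Ctrl replicate 2. KO vs. CreCtrl gave 2498 and 3762 with the block, 4287 without a filter and 703 in the fit of all 14 libraries. It gave 1147 without CreCtrl replicate 2, 1279 without KO replicate 2 of that set and 4819 without CreCtrl replicate 1, with 4.07% to 44.1% of calls higher. Depth limits Aspn most, which had 3 counts in 1 KO library.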
